A study of Mus musculus with 12 samples.

Results

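The drug main effect in mouse quadriceps was estimated from 6 arrays of mice given GW1516 against 6 arrays of mice not given it, and this account follows the genes that the pooled comparison reached while neither training state did so by itself. The study treated sedentary and exercise-trained C57Bl/6J mice for 4 weeks, and each of its 12 arrays measured RNA pooled from 3 mice. The GW arrays came from sedentary mice given GW1516 at 5 mg/kg/day, and the combination arrays came from trained mice given the same dose. The vehicle arrays came from sedentary mice given vehicle, and the exercise arrays came from trained mice given vehicle, with 3 arrays and 9 mice in each of the 4 groups. No genotype, sex, age or training schedule was given in the sources used here, and 3 pooled arrays per group measure the spread between pools, not between single mice.

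Of 13575 probe sets tested, 38 passed an adjusted p of 0.05 for the drug main effect, which is 0.280% of them, and 7.91% had an unadjusted p under 0.05. For 19 of these, 0.140% of all tested, no probe set of the same gene passed that threshold in GW against vehicle or in combination against exercise. They represent 18 named genes and 1 probe set with no gene symbol, and 14 were higher and 5 were lower with GW1516. Higher calls made up 0.214% and lower calls 0.0663% of all probe sets tested.

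GW1516 is a synthetic agonist of PPAR delta, a nuclear receptor that pairs with the retinoid X receptor and binds DNA at direct repeats of a short half-site. In skeletal muscle the receptor is known for switching on genes of fatty acid uptake, of the carnitine shuttle that carries fatty acids into mitochondria, and of beta-oxidation. The genes reached by the pooled test alone included genes of acyl-CoA and carnitine handling and of beta-oxidation, and also genes of gene regulation, RNA handling, the cytoskeleton and membrane traffic.

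Promoters are shown for 3 of the lipid and peroxide genes, because their transcripts all rose, and to show where the receptor's binding repeat is matched and where it is not. Each run is the 250 bases before the transcription start from RefSeq, build GRCm38.p6, written 5′ to 3′ on the strand of the gene, with capitals for the only match to the repeat AGGTCANAGGTCA with at most 2 mismatches in its 12 fixed letters on either strand. Cat lies at chr2:103485154-103485403 on the minus strand, Eci2 at chr13:34994145-34994394 on the minus strand and Ech1 at chr7:28825088-28825337 on the plus strand.
Cat: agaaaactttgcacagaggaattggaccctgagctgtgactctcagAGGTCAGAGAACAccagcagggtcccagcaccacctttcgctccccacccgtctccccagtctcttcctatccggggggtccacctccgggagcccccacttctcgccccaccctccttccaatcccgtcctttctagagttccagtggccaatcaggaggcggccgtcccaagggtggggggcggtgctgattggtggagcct
Eci2: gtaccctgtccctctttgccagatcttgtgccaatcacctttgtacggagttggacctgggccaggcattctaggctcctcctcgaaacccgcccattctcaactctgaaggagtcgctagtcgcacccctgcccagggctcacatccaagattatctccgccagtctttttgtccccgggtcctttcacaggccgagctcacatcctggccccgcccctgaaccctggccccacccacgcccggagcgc
Ech1: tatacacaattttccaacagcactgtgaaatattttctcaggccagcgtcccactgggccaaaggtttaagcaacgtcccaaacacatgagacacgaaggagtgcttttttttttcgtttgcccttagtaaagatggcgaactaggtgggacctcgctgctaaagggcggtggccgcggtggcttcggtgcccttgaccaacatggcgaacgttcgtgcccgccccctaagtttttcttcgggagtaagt
The match in the Cat promoter runs from 204 to 192 bases before the start. Across the 15 promoters read for 12 of the 18 named genes, 1 held such a match (6.67%), against 3.24% of all 32851 promoters of this length. The single half-site AGGTCA on either strand, which also lies within the repeat, was in 2 of the 15 (13.3%) and in 14% of all promoters. Neither the Eci2 nor the Ech1 promoter held the repeat or the half-site. A match in these letters is a description of the sequence and is no evidence of binding, and the other promoters hold no match only within this window.

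The array signals had been scaled by the MAS5 software to the same trimmed mean, which the deposited values still showed (199.975 to 199.977 after leaving out 2% at each end). Median signals lay between 48.4 and 57.2, and the correlation of log2 signals with the other arrays of the same group lay between 0.910 and 0.921, with GW array 1 lowest. Correlations with arrays of other groups lay between 0.908 and 0.921, so the groups did not stand apart by this measure. GW array 2 (0.921 against 0.916) and combination array 1 (0.914 against 0.913) correlated more with other groups than with their own. The 24 bacterial control probe sets had a median signal of 5.78 and a 95th percentile of 24.1, which serves below as a guide to background. Summed signals of 14 muscle fibre markers were 204803 to 256885 with GW1516 and 207859 to 255183 without it. Signals of 2 combination arrays stood apart for fat cell markers, and that is set beside the results further on. Because muscle RNA was measured in bulk, more cells of a type and more RNA per cell cannot be told apart.

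Among genes that handle activated fatty acids, Dbi and Crat were reached by the pooled test alone. Dbi (1422432_at), which encodes the acyl-CoA-binding protein that carries long-chain acyl-CoA in the cytosol, had signals of 734, 927 and 818 on the GW arrays and 879.9, 875 and 1002 on the combination arrays, against 568, 356 and 499 on the vehicle arrays and 530.2, 669.6 and 502 on the exercise arrays. All 6 drug arrays lay above all 6 arrays without drug. The pooled log2 fold change was 0.76 ± 0.11 (SE, n = 6 against 6 arrays), a 1.70-fold rise with a limma adjusted p of 0.00512. It was 0.82 in sedentary and 0.70 in trained mice, with limma adjusted p-values of 0.101 and 0.119. The call held without any 1 of the 12 arrays, while the other 3 Dbi probe sets gave 0.37, 0.50 and 0.41 and did not pass (limma adjusted p 0.128, 0.322 and 0.125).

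Crat (1417008_at) encodes carnitine acetyltransferase, which moves acetyl groups between coenzyme A and carnitine. Its signals were 1985, 2064 and 2075 with GW and 2165, 2252 and 2114 with the combination, against 1744, 1625 and 1806 with vehicle and 1756, 1597 and 1682 with exercise. The shift was small, and the arrays of the drug and no-drug sets did not overlap. Its log2 fold change was 0.31 ± 0.05 (SE, 6 against 6 arrays), or 1.24-fold, with a limma adjusted p of 0.0201. The trained arm came close to the threshold at 0.38 (limma adjusted p 0.0664), and the sedentary arm gave 0.24 (limma adjusted p 0.555). Leaving out any 1 array other than vehicle 1, vehicle 3, GW 1 or GW 2 ended the call (limma adjusted p 0.0512 to 0.0793). A second Crat probe set gave 0.13 and did not pass (limma adjusted p 0.86).

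Eci2 and Ech1 encode isomerases that reposition double bonds so that unsaturated fatty acids can pass through beta-oxidation. Eci2 (1431012_a_at) had signals of 675, 596 and 549.8 with GW and 651, 739.7 and 643 with the combination, against 434, 445 and 465 with vehicle and 418, 544 and 399 with exercise. The highest array without drug, exercise 2, lay just below the lowest drug array, GW 3. For Eci2 the pooled log2 fold change was 0.51 ± 0.09 (SE, 6 against 6 arrays), a 1.43-fold rise with a limma adjusted p of 0.0201. It was 0.43 in sedentary mice (limma adjusted p 0.523) and 0.59 in trained mice (limma adjusted p 0.0978). The call ended without vehicle 1, vehicle 2, exercise 1, exercise 3 or combination 2 (limma adjusted p 0.0504 to 0.0772).

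Ech1 (1448491_at), a dienoyl-CoA isomerase, had signals of 1815, 1787 and 1821 with GW and 1736, 2086 and 2065 with the combination, against 1491, 1502 and 1401 with vehicle and 1487, 1659 and 1316 with exercise. The GW arrays lay within a narrow band, and no array without drug reached it. Pooled over both arms, the log2 fold change was 0.35 ± 0.07 (SE, 6 against 6 arrays), or 1.28-fold, with a limma adjusted p of 0.0419. The arms gave 0.30 in sedentary and 0.40 in trained mice, with limma adjusted p-values of 0.584 and 0.15. Only without exercise 2, combination 1 or GW 1 did the call hold, and without any other array the limma adjusted p was 0.0617 to 0.143.

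**Figure D1:**
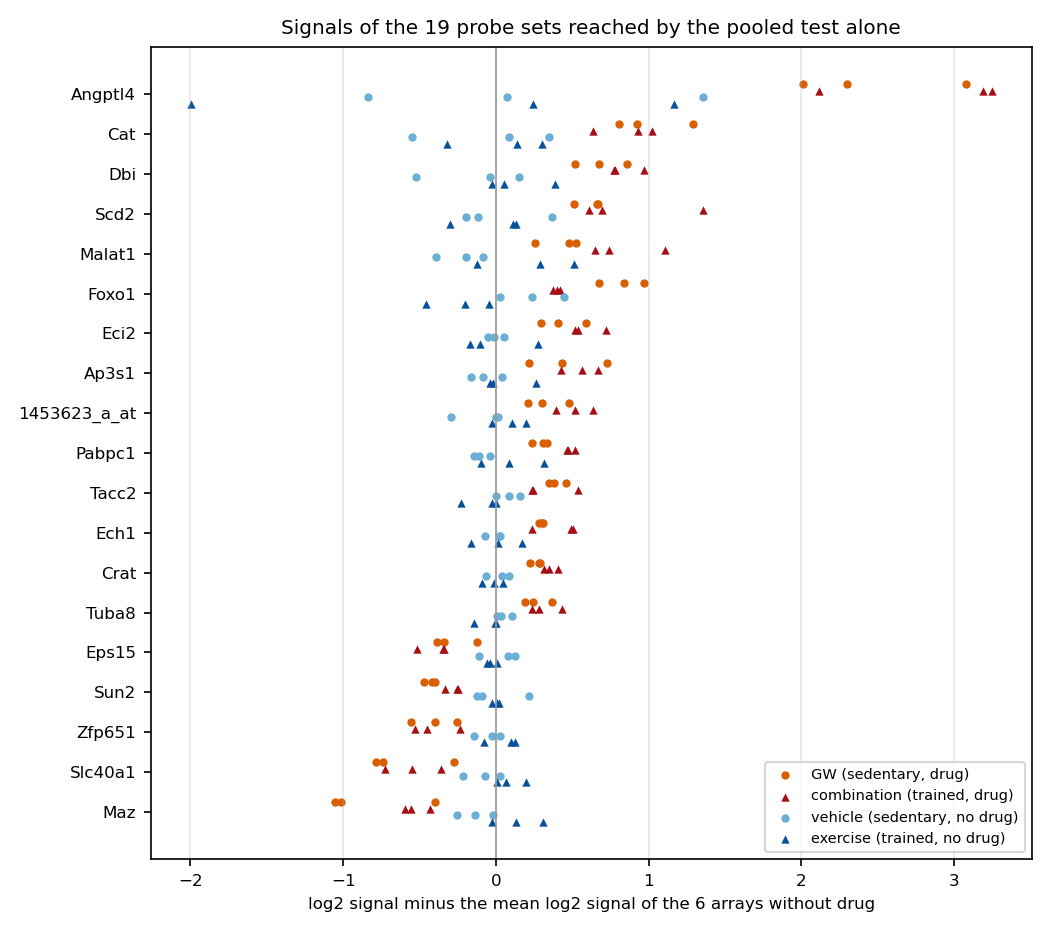
Each point is 1 array, placed at its log2 signal minus the mean log2 signal of the 6 arrays without drug (horizontal axis), for the 19 probe sets reached by the pooled test alone (rows, by log2 fold change). The drug and no-drug arrays are apart for 15 of them and overlap for Pabpc1, Foxo1, Malat1 and Ap3s1.

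Cat encodes catalase, the peroxisomal enzyme that breaks down hydrogen peroxide. The probe set 1416429_a_at had signals of 646, 832 and 596 with GW and 529, 648 and 691 with the combination, against 433, 233 and 361 with vehicle and 375, 273 and 421 with exercise. Every drug array lay above every array without drug. GW1516 gave a log2 fold change of 0.93 ± 0.15 (SE, 6 against 6 arrays), a 1.91-fold rise with a limma adjusted p of 0.0127. It was 1.05 in sedentary and 0.82 in trained mice, with limma adjusted p-values of 0.138 and 0.193, and the call held without any 1 of the 12 arrays. The second Cat probe set gave 0.73 ± 0.15 (SE, 6 against 6 arrays) and just missed the threshold (limma adjusted p 0.0609), with 1.03 in sedentary and 0.43 in trained mice.

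Angptl4 encodes a secreted inhibitor of lipoprotein lipase and had the largest change of the 19 probe sets. The probe set 1417130_s_at had signals of 304, 145 and 177 with GW and 156, 342 and 328 with the combination, against 92.2, 37.9 and 20.1 with vehicle and 80.7, 42.5 and 9.01 with exercise. Vehicle array 3 and exercise array 3 lay below the background guide of 24.1, so the size of the fold change depends on how low signals are treated. The log2 fold change was 2.66 ± 0.47 (SE, 6 against 6 arrays), or 6.30-fold, with a limma adjusted p of 0.0201, and it was 2.27 with a pseudocount of 10.5 (limma adjusted p 0.00896). The arms gave 2.26 in sedentary and 3.05 in trained mice, with limma adjusted p-values of 0.528 and 0.102. The call ended without vehicle 2, combination 2, combination 3 or GW 3 (limma adjusted p 0.0548 to 0.0783) and under a robust prior (limma adjusted p 0.116).

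Scd2 (1415822_at) encodes a stearoyl-CoA desaturase, which makes monounsaturated fatty acids. Its signals were 278, 250.2 and 279.7 with GW and 450.3, 269 and 285 with the combination, against 227, 162 and 153 with vehicle and 192, 143 and 189.9 with exercise. Combination array 1 was far above the other drug arrays, and the 2 sets of arrays did not overlap. Scd2 had a pooled log2 fold change of 0.75 ± 0.15 (SE, 6 against 6 arrays), a 1.68-fold rise with a limma adjusted p of 0.0424. It was 0.59 in sedentary mice (limma adjusted p 0.684) and 0.91 in trained mice (limma adjusted p 0.119). Leaving out any array but vehicle 1 ended the call (limma adjusted p 0.0537 to 0.111), and the other 2 Scd2 probe sets gave 0.82 and 0.76 without passing (limma adjusted p 0.174 and 0.452).

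Foxo1, Maz and Zfp651 encode DNA-binding proteins, and only Foxo1 rose. Foxo1 (1416981_at) is a forkhead transcription factor that muscle uses in fasting and wasting programmes. Its signals were 294, 361 and 331 with GW and 239, 246 and 244 with the combination, against 218, 188 and 251 with vehicle and 134, 161 and 179 with exercise. Within each training state the drug arrays lay above their controls, while across them the highest vehicle array exceeded the combination arrays. Pooled over both arms, the log2 fold change was 0.61 ± 0.10 (SE, 6 against 6 arrays), or 1.53-fold, with a limma adjusted p of 0.0177, and the arms gave 0.59 and 0.63 (limma adjusted p 0.35 in sedentary and 0.145 in trained mice). The call ended without vehicle 2, combination 2 or GW 3 (limma adjusted p 0.0548 to 0.0557), and the other 2 Foxo1 probe sets tested gave 0.74 and 0.37 without passing (limma adjusted p 0.0917 and 0.661).

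Maz (1427099_at), a zinc finger transcription factor, had signals of 115, 175 and 111 with GW and 157, 153 and 171 with the combination, against 210.1, 193 and 228 with vehicle and 253, 226 and 286 with exercise. All drug arrays lay below all arrays without drug. Its log2 fold change was -0.67 ± 0.12 (SE, 6 against 6 arrays), or 0.626-fold, with a limma adjusted p of 0.0247, and it was -0.68 in sedentary and -0.67 in trained mice (limma adjusted p 0.373 and 0.21). Zfp651 (1435360_at), a zinc finger protein, had signals of 509.6, 564 and 456 with GW and 571, 465 and 492 with the combination, against 685, 659 and 606 with vehicle and 635, 719 and 732 with exercise. It too had no overlap between drug and no-drug arrays, and its log2 fold change was -0.40 ± 0.08 (SE, 6 against 6 arrays; limma adjusted p 0.0485). The Maz call held without exercise 2, combination 3, GW 1 or GW 2 and ended without any other array (limma adjusted p 0.0513 to 0.0919). The Zfp651 call held without vehicle 3, combination 1 or GW 2 and ended otherwise (limma adjusted p 0.0542 to 0.153).

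Pabpc1 and Malat1 belong to RNA handling, and both rose. Pabpc1 (1418883_a_at) encodes the cytoplasmic protein that binds poly(A) tails. Its signals were 1983, 1853 and 1954 with GW and 2182, 2173 and 2252 with the combination, against 1425, 1457 and 1531 with vehicle and 1669.5, 1957 and 1468 with exercise. Exercise array 2 exceeded 2 of the GW arrays, so the pooled sets overlapped although the arms did not. GW1516 gave a log2 fold change of 0.39 ± 0.06 (SE, 6 against 6 arrays), or 1.31-fold, with a limma adjusted p of 0.0172, and the arms gave 0.39 and 0.38 (limma adjusted p 0.336 in sedentary and 0.155 in trained mice). The call ended without vehicle 2 or GW 3 (limma adjusted p 0.0548 and 0.0557).

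Malat1 (1427285_s_at) is a long noncoding RNA kept in the nucleus. Its signals were 272, 234 and 281 with GW and 421, 327 and 307 with the combination, against 149, 171 and 185 with vehicle and 279, 239 and 179 with exercise. The trained arrays without drug overlapped the GW arrays. The log2 fold change was 0.62 ± 0.12 (SE, 6 against 6 arrays), a 1.54-fold rise with a limma adjusted p of 0.0419. The call held only without vehicle 3 or exercise 1 and otherwise had a limma adjusted p of 0.0513 to 0.134 with 1 array left out. The other 4 Malat1 probe sets tested gave 0.22 to 0.37, and none passed. Most of them were far brighter than 1427285_s_at. At mean signals of 2274, 3260, 4941 and 258 they gave 0.34, 0.37, 0.22 and 0.31.

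Of the cytoskeletal and nuclear envelope genes, Tacc2 and Tuba8 rose and Sun2 fell. Tacc2 (1425745_a_at), a coiled-coil protein that associates with microtubules and centrosomes, had signals of 6837, 6699 and 7221 with GW and 6180.2, 6224 and 7629 with the combination, against 5868, 5587 and 5264 with vehicle and 5264, 5172 and 4489 with exercise. It was among the brightest of the 19 probe sets, and its arrays did not overlap. The Tacc2 log2 fold change was 0.37 ± 0.06 (SE, 6 against 6 arrays; limma adjusted p 0.0201), and the trained arm gave 0.42 (limma adjusted p 0.0941). Its call ended without vehicle 2 or GW 3 (limma adjusted p 0.0548 and 0.0570). Tuba8 (1419518_at), an alpha-tubulin, had signals of 3626 to 4276 on the drug arrays, against 2877 to 3412 on the arrays without drug. Its log2 fold change of 0.29 ± 0.06 (SE, 6 against 6 arrays; limma adjusted p 0.0419) was the smallest of the 19, and the call held only without GW 2 (limma adjusted p 0.0584 to 0.128 otherwise). Sun2 (1433832_at), an inner nuclear membrane protein that links the nucleus to the cytoskeleton, had signals of 825 to 963 on the drug arrays, against 1050.4 to 1331 on the arrays without drug. Its log2 fold change was -0.35 ± 0.07 (SE, 6 against 6 arrays; limma adjusted p 0.0419), and the call held only without vehicle 3 (limma adjusted p 0.0537 to 0.128 otherwise).

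Slc40a1, Eps15 and Ap3s1 encode proteins of membranes and their traffic. Slc40a1 (1417061_at), the iron exporter ferroportin, had signals of 219.6, 302 and 213 with GW and 285, 250.3 and 221 with the combination, against 372, 348 and 315 with vehicle and 419, 383 and 368 with exercise. All drug arrays were below all arrays without drug, and the log2 fold change was -0.57 ± 0.10 (SE, 6 against 6 arrays; limma adjusted p 0.0276). The call held without vehicle 3, combination 1, GW 1 or GW 2 (limma adjusted p 0.0706 to 0.0984 without any other array), and a second probe set gave -0.20 (limma adjusted p 0.73). Eps15 (1419252_at), a clathrin adaptor used in endocytosis, had signals of 913 to 1202 on the drug arrays, against 1208 to 1425 on the arrays without drug. Its log2 fold change was -0.34 ± 0.07 (SE, 6 against 6 arrays; limma adjusted p 0.0479), and a second probe set gave -0.00 (limma adjusted p 0.999). The Eps15 call held only without vehicle 3 or GW 2 (limma adjusted p 0.0688 to 0.153 otherwise).

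Ap3s1 (1422593_at), a small subunit of the AP-3 adaptor complex, lay on the threshold itself. Its signals were 277 to 395 on the drug arrays, against 213 to 286 on the arrays without drug, and exercise array 1 overlapped the lowest drug array. Pooled over both arms, the log2 fold change was 0.51 ± 0.10 (SE, 6 against 6 arrays; limma adjusted p 0.04999), and the call held only without GW 1 (limma adjusted p 0.0526 to 0.150 otherwise). It also ended when 1 more probe set entered the test. The probe set without a symbol, 1453623_a_at, had signals of 549 to 736 on the drug arrays, against 386 to 544 on the arrays without drug. Its log2 fold change was 0.42 ± 0.08 (SE, 6 against 6 arrays; limma adjusted p 0.0419), and the call held only without vehicle 3 or GW 1 (limma adjusted p 0.0551 to 0.143 otherwise).

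**Figure D2:**
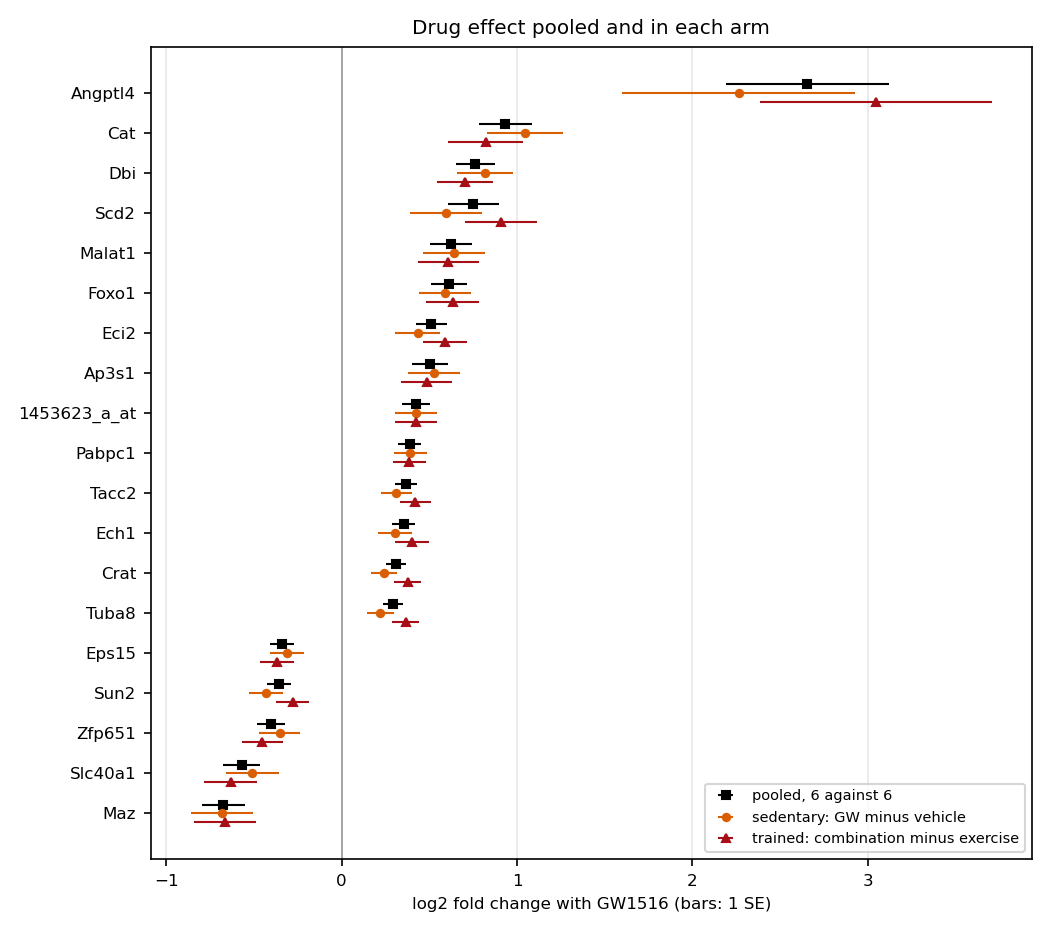
Squares give the pooled log2 fold change with GW1516, circles the sedentary arm and triangles the trained arm, with bars of 1 SE, for the 19 probe sets (rows). The pooled bars are the shortest, with a median SE of 0.0895 against 0.127 in each arm.

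In both training states the 19 probe sets had the same sign, and none passed the threshold with 3 arrays against 3. Limma adjusted p-values were 0.101 to 0.684 in the sedentary arm and 0.0664 to 0.388 in the trained arm, and 16 of 19 had the lower adjusted p in the trained arm. The sedentary arm called 0.0958% and the trained arm 0.162% of all probe sets tested. The log2 fold change was larger in size in the trained arm for only 11 of 19, and each probe set had the same SE in both arms. Adjustment depends on all probe sets of an arm, so a lower adjusted p there does not mean a stronger change. Pabpc1, for example, gave 0.392 in sedentary and 0.385 in trained mice (limma adjusted p 0.336 and 0.155). The median SE of the 19 was 0.0895 on the log2 scale in the pooled comparison and 0.127 in each arm. No overlap between drug and control arrays was seen in either arm for any of the 19, against 1.16% of all probe sets apart in the same direction in both arms, and 15 of 19 had the 6 drug arrays apart from the 6 others, against 0.611% of all. These counts come from the contrast that chose the genes, so nothing is read from them.

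The difference between the arms was not detectable for any of the 19: the unadjusted interaction p-values from limma ran from 0.204 to 0.999, and the lowest limma adjusted p was 0.804. Genes called in an arm were left out, and the choice therefore favours equal arms. Across all probe sets, 6.79% had an unadjusted interaction p under 0.05 and 0.00% passed after adjustment (lowest limma adjusted p 0.102). Of the 19 pooled calls whose gene an arm also reached, 2 of which passed in neither arm themselves, 10 had an unadjusted interaction p under 0.05. Choice by a call in an arm favours unequal arms, so nothing is read from that count.

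Training is orthogonal to the drug in this design and took no part in the choice beyond the shared estimate of the spread. That estimate matters, since the 19 had a median SE of 0.0895, against 0.149 for all probe sets tested. A small SE also lowers the training p, so the choice favours low training p-values and nothing is read from the next count. At an unadjusted limma p under 0.05, 5 of the 19 probe sets differed between trained and sedentary arrays, against 8.59% of all probe sets tested, and none passed after adjustment (lowest limma adjusted p 0.284), where 0.0147% of all did. Foxo1 had a training log2 fold change of -0.45 ± 0.10 (SE, 6 against 6 arrays; unadjusted limma p 0.000481), opposite in sign to its drug change. Malat1 gave 0.43 ± 0.12 (SE, 6 against 6 arrays; unadjusted limma p 0.00259) and Pabpc1 gave 0.19 ± 0.06 (SE, 6 against 6 arrays; unadjusted limma p 0.00863), both of the same sign as the drug change. Maz gave 0.28 ± 0.12 (SE, 6 against 6 arrays; unadjusted limma p 0.033), opposite to its drug change, and 1453623_a_at gave 0.19 (unadjusted limma p 0.0381). Of the 19, 3 were also called in combination against vehicle, where 0.155% of all probe sets were called: Dbi, Pabpc1 and Malat1 (limma adjusted p 0.0201, 0.0181 and 0.0223). That comparison shares arrays with the pooled test.

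Genes that an arm also reached made up the other 19 pooled calls, 15 higher and 4 lower. Because an arm has fewer arrays and a larger SE, the split itself sorts large changes from small ones, and the sizes of the 2 sets are given as a description. The 19 reached by the pooled test alone had a median absolute log2 fold change of 0.505, against 0.762 for the others and 0.113 for all probe sets tested. The largest were Slc27a1, a fatty acid transporter, at 1.54, Cpt1a, the gate enzyme of mitochondrial fatty acid import, at 1.24, Fbp2, the muscle fructose bisphosphatase, at 1.21, and Acadl, a long-chain acyl-CoA dehydrogenase, at 1.19. Acaa2, the last enzyme of the beta-oxidation cycle, gave 0.65 and 0.76 on its 2 probe sets, and Ucp3, a mitochondrial uncoupling protein, gave 1.13 and 0.75. The carnitine carrier Slc25a20 gave 0.81 and 0.75, the malonyl-CoA decarboxylase Mlycd 0.65, the electron transfer flavoprotein subunit Etfb 0.43 and the fatty acid-binding protein Fabp3 0.60. Outside lipid metabolism, Mybph, a myosin-binding protein, gave 0.78 and Wnt4, a secreted signalling protein, gave 0.84. The lower calls were Dusp10, a phosphatase of MAP kinases, at -0.64 and -0.88 on its 2 probe sets, Spns2, a sphingolipid exporter, at -0.53 and Anxa7, a calcium-dependent phospholipid-binding protein, at -0.65. Each of these 19 probe sets passed in limma for the pooled drug effect. Of the pooled-only probe sets, 12 changed less than 1.5-fold and 1 more than 2-fold, against 2 and 5 of the others.

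**Figure D3:**
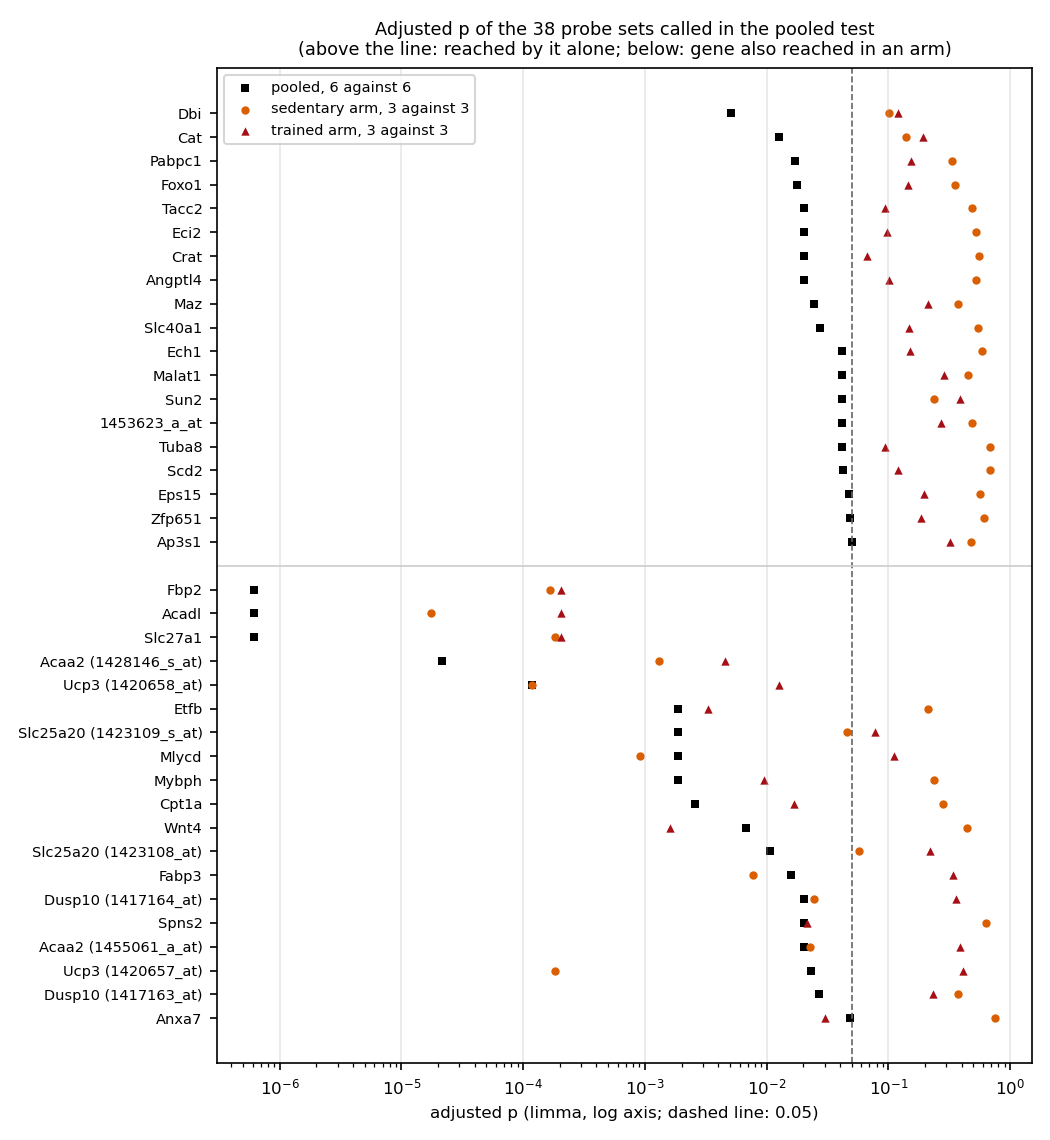
Adjusted p from limma (log axis) of the 38 pooled calls in the pooled test (squares), the sedentary arm (circles) and the trained arm (triangles). In the upper 19 rows the arms lie right of the dashed threshold of 0.05, and only the pooled square lies left of it.

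Pooling also lost calls. Of the arm calls, 13 were not reached by the pooled test, 2 in the sedentary arm and 11 in the trained arm. All 13 had an unadjusted interaction p under 0.05 in limma, against 6.79% of all probe sets, and none passed after adjustment. An arm call that the pooled test misses favours unequal arms, so nothing is read from that count. Pfkfb3, which makes an activator of glycolysis, fell in sedentary mice with a log2 fold change of -1.40 (limma adjusted p 0.00529) and gave -0.87 pooled (limma adjusted p 0.0837). Scd1, the desaturase paralogue of Scd2, rose by 1.66 on the log2 scale in trained mice (limma adjusted p 0.0266) and gave 1.05 pooled (limma adjusted p 0.132). Its signals were 2235, 4115 and 6193 on combination arrays 1, 2 and 3, against 1123 to 1362 on the exercise arrays. Combination arrays 2 and 3 were also those high for fat cell markers, and a link was not tested. Just outside the pooled threshold lay Tspan31 at -0.88 ± 0.18 (SE, 6 against 6 arrays; limma adjusted p 0.0538) and Gnai2 at -0.49 ± 0.10 (SE, 6 against 6 arrays; limma adjusted p 0.0551).

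Fatty acid uptake and beta-oxidation had the most pooled calls among the gene lists examined. Among 18 genes tested of fatty acid uptake, activation and the carnitine shuttle, 7 rose and 0 fell, with a median log2 fold change of 0.28, and Dbi and Crat of these were reached by pooling alone. The list for mitochondrial beta-oxidation had 5 of 20 genes higher and 0 lower, with a median of 0.16, and Eci2 and Ech1 of these came from pooling alone. Membership of a list does not show in which organelle a product acts. Over all 7940 genes tested, 25 rose and 8 fell, and the median was -0.01. Smaller counts came from peroxisomal oxidation, with 1 of 15 higher (Cat), lipid droplet proteins and lipases, with 1 of 12 (Angptl4), and fatty acid and triglyceride synthesis, with 1 of 16 (Scd2). Proteolysis and atrophy genes had 1 of 15 higher (Foxo1), antioxidant genes and metallothioneins 1 of 19 (Cat again), the fuel switch list 1 of 10 (Fbp2) and uncoupling proteins 1 of 1 (Ucp3). The only list with a fall was that of stress, growth arrest and phosphatase genes, with 1 of 12 lower (Dusp10). None of 18 tricarboxylic acid cycle genes, 44 oxidative phosphorylation genes, 21 glycolysis and glycogen genes or 17 PPAR receptors and co-regulators passed in limma, where 7, 2, 6 and 5 of them had an unadjusted p under 0.05, against 901 of all 7940 genes. Pdk4, a kinase that holds back glucose oxidation, gave 0.77 ± 0.20 and did not pass (SE, 6 against 6 arrays; limma adjusted p 0.19). Fasn, the fatty acid synthase, gave 1.44 ± 0.32 and did not pass (SE, 6 against 6 arrays; limma adjusted p 0.09). Fasn signals were 291, 847 and 1543 on combination arrays 1, 2 and 3, against 179 to 218 on the exercise arrays. Here too the highest were the arrays high for fat cell markers, and a link was not tested. The citrate synthase gene Cs gave 0.23, 0.05 and -0.00 on its 3 probe sets, the fatty acid transporter gene Cd36 gave 0.23, 0.16 and 0.06, and 5 probe sets of the coactivator gene Ppargc1a gave -0.10 to 0.09, none of them past the threshold. Ppard itself was below the filter, with signals of 1.97 to 5.75, and Cpt1b had no probe set with its symbol alone.

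Fat cell markers stood apart on combination arrays 2 and 3, and not on the drug arrays in general. Summed signals of 11 markers were 6483, 9684 and 8286 on the GW arrays and 7565, 14055 and 17632 on the combination arrays, against 7640, 7678 and 6969 on the vehicle arrays and 8386, 6896 and 7380 on the exercise arrays. Adipoq, the fat cell hormone adiponectin, had 1049 and 1471 on combination arrays 2 and 3, against 210 to 365 on all other arrays. Of the 8 fat cell markers tested, none passed for the drug, 4 had an unadjusted limma p under 0.05 (901 of all 7940 genes did), and all 8 were positive with a median log2 fold change of 0.47. With the mean log2 level of these markers in the fit, 17 of the 19 calls ended, and Dbi (limma adjusted p 0.038) and Malat1 (limma adjusted p 0.0185) held. Some log2 fold changes were smaller in size in that fit than reported, with 0.83 for Cat, 2.40 for Angptl4, 0.30 for Ech1, 0.31 for Tacc2 and -0.50 for Slc40a1. Others were larger in size, with 0.82 for Scd2, -0.71 for Maz and 0.32 for Tuba8. Without combination arrays 2 and 3 all 19 ended, with 4 trained arrays left, while Dbi gave 0.76 (limma adjusted p 0.07), Cat 0.90 (limma adjusted p 0.141) and Angptl4 2.28 (limma adjusted p 0.227).

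**Figure D4:**
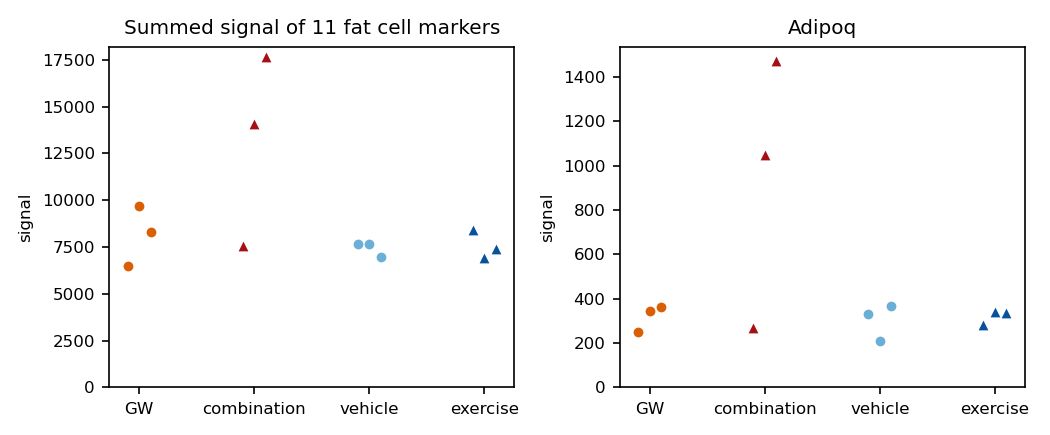
Summed signal of 11 fat cell marker genes (left) and the signal of Adipoq (right) on each array by group, on linear axes that start at 0. Combination arrays 2 and 3 stand above the other 10 arrays in both panels.

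Support for single calls was uneven. Dbi and Cat were called in every fit that left out 1 of the 12 arrays, and the other 17 were not. The most calls were lost without vehicle 2, which ended 17 of 19, and without GW 3, which ended 16. The pooled test called 14 probe sets without vehicle 2, 15 without GW 3 and 49 without GW 1, and those reached by it alone numbered 4 without vehicle 2 and 27 without vehicle 3. Without the trend of the spread with signal level in limma all 19 calls ended, and without the training covariate 9 ended. Direction stayed the same for every one of the 19 in all these fits. The 19 were chosen for changes large against their SE, so a change of sign was unlikely from the start.

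**Figure D5:**
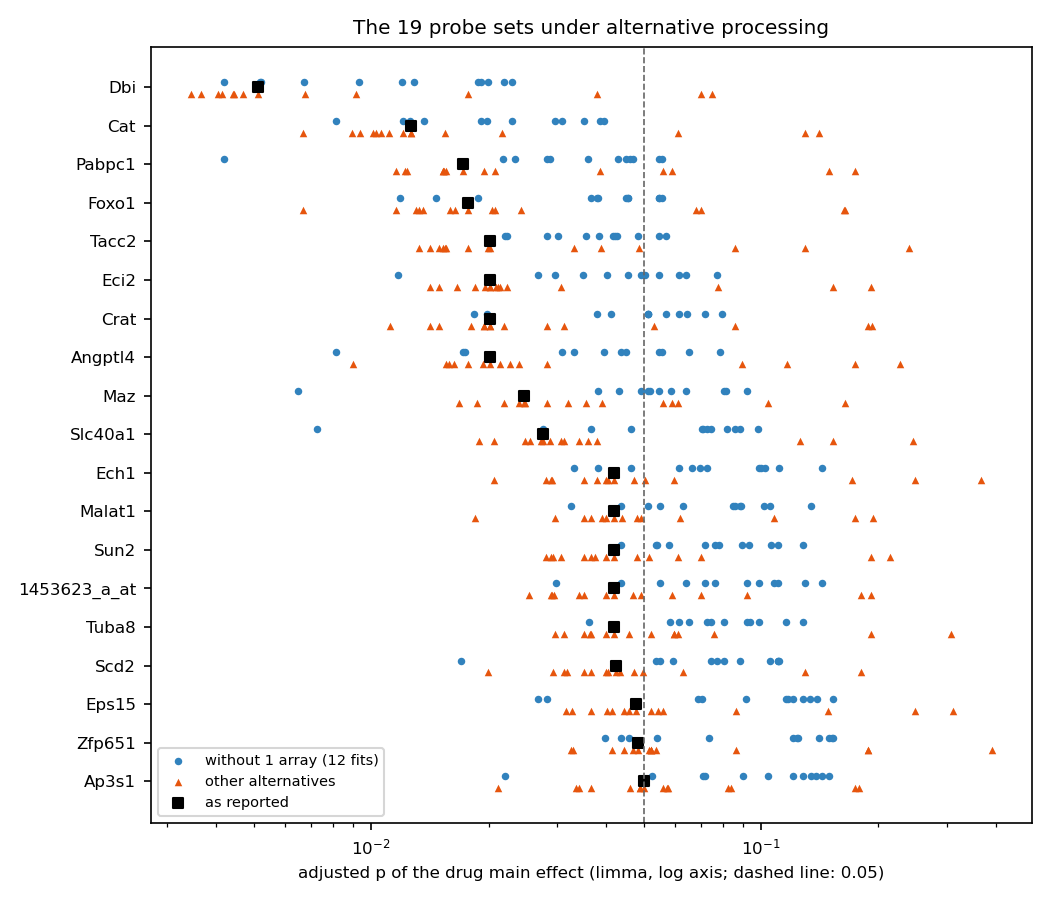
Adjusted p of the drug main effect (log axis) for each of the 19 probe sets as reported (squares), without 1 array (circles) and under the other alternatives (triangles). All 12 circles lie left of the dashed threshold of 0.05 for Dbi and Cat alone.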

How the data were processed

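Total RNA from quadriceps, pooled from 3 mice per array, was hybridised to 12 oligonucleotide arrays in 4 groups of 3. The authors deposited 1 MAS5 signal intensity per probe set and array on a linear scale, per the submitters' processing notes and the values (MAS5 version not given in the sources used here). MAS5 subtracts a local background and summarises each probe set, so values near background vary most on a log scale. No detection calls were used, and the number of arrays limits the precision.

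Of 22690 probe sets, 64 controls were left out and 13575 were kept, the 60% with the highest average log2 signal (mean signal above 28.4). Log2 signals were fitted in limma 3.58.1 (R 4.3.3) with lmFit and eBayes with an intensity trend: drug and training as additive terms for both main effects (9 residual degrees of freedom), and 4 group means for the arms, the interaction and combination against vehicle (8). P-values are two-sided, were adjusted by Benjamini-Hochberg across the 13575 probe sets and were called under 0.05, so a different table length moves calls at the threshold. The scripts were tested on simulated data.

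Genes were named through the platform annotation: 20393 probe sets had 1 symbol, 691 several and 1606 none, and 20364 matched a RefSeq gene. Genes reached by the pooled test alone had no probe set past the threshold in either arm. All of them were named, with every gene also reached by an arm, a fixed set of drug targets and genes of the lists. The genes also reached by an arm beyond the 8 of smallest adjusted p were added after their values were seen. The members and lists were chosen with earlier results of these data known. Alternatives changed the normalization, pseudocount (10.5), filter, trend, prior, weights, covariates and arrays used, or took 1 probe set per gene.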

Additional observations from a re-analysis of the deposited data

Results flagged for a closer look

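Among 38 sets of 6 arrays tested with Dixon's criterion, 1 held an array far from the others: the Scd2 signal of combination array 1 was 450.3, the highest of the 6 drug arrays, with a gap to the next array of 0.777 of the whole range, above the criterion's 95% limit for 6 arrays. Chance alone marks about 1 in 20 such sets. Without combination array 1 the Scd2 call ended, as it did without any array but vehicle 1.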

How the results depend on the processing

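The direction of the 19 probe sets was the same under each alternative that tested them (with 1 probe set per gene, 17 of the 19). Their choice made that likely, so it is no measure of support, and many of the calls ended. With 1 probe set per gene, the called probe sets of Dbi and Malat1 were not tested. Brighter probe sets of these genes took their place (mean signals 993 and 4941). Counts of probe sets called for the drug, 38 as reported, were 8 with no intensity trend, 25 with no training covariate, 17 with the fat cell marker score in the fit and 10 without combination arrays 2 and 3, an alternative chosen after seeing the data. Those reached by the pooled test alone, 19 as reported, were 2, 10, 6 and 3 in the same order. The sedentary arm, 13 as reported, had 7 with no trend, 20 with array weights and 7 in a fit of its own arrays. The trained arm, 22 as reported, had 4, 39 and 40 in the same fits, and 0 without combination arrays 2 and 3, where the lone combination array was assumed to vary like the others. Array weights gave 1 interaction call, where 0 were reported. Training, with 2 calls reported, had 0 with no trend, 24 with the fat cell marker score and 25 without combination arrays 2 and 3. With 1 array left out, the counts were 14 to 49 for the drug, 4 to 27 for the pooled test alone, 10 to 18 in the sedentary arm, 8 to 83 in the trained arm, 0 to 9 for the interaction and 0 to 14 for training. Kpna4 turned to a log2 fold change of 0.040 without combination arrays 2 and 3, and Ppargc1a ranged from -0.085 (without GW 1) to 0.18 with 1 array left out, with -0.012 without vehicle 3. The cause was not tested. The share of lower calls fell to 0 of 8 with no trend, 0 of 17 with the marker score, 0 of 10 without both combination arrays and 2 of 26 with the replicate block, against 9 of 38. Any pairing of arrays by replicate number was weak: 18 same-numbered pairs had correlations of -0.05 to 0.10, 1 of them over 0.1. Pairs with different numbers had -0.08 to 0.06. The highest values were those of same-numbered vehicle and GW arrays, at 0.076, 0.10 and 0.063. Same-numbered vehicle and exercise arrays had -0.048, 0.016 and 0.011. With the replicate number as a block, 10 of the 19 calls ended. The replicate block gave 26 drug calls, 12 by the pooled test alone, 1 interaction call and 0 training calls. Signals near background, as for Angptl4, are the least precise.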
